A study of Mus musculus with 4 samples.

Results

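To see how the RNA of the pluripotency network stood in *Zfp296* KO ESCs, 37 genes of this network were followed across all libraries of the series. The list was set by gene symbol, and all 37 symbols matched 1 of the 48526 gene identifiers in the count files. By the state each gene is best known for, 14 were taken as naive genes, 20 as general pluripotency genes and 3 as primed genes. RNA-seq was available for 2 WT and 2 KO libraries. The study's methods name R1 ESCs, an established mouse ESC line, while the sample titles of the WT libraries name no line. The KO cells, named KO2, are described as clone 2 made from this line, in which CRISPR/Cas9 had been directed to the first exon of *Zfp296*, which encodes a zinc finger protein that binds the NuRD complex. KO2 is a monoclonal line, so its libraries are replicates of 1 clone. The study's ESCs were grown on gelatine in serum with LIF and inhibitors of MEK and GSK3.

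ESCs kept with LIF and these inhibitors are close to the naive epiblast of the embryo before implantation, a state held by transcription factors such as ESRRB, TBX3, PRDM14, NR5A2 and the KLF family. POU5F1 and NANOG work with these factors, and POU5F1 is also needed in the primed epiblast after implantation, where OTX2, ZIC2 and FGF5 rise. A further layer acts on RNA. LIN28A and LIN28B bind the precursors of the let-7 microRNAs and block their maturation, TRIM71 represses target mRNAs in stem cells, and L1TD1 is an RNA-binding protein derived from the LINE-1 retrotransposon.

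Counts on genes summed to between 2829914 and 4334499 in the WT libraries and to between 7437294 and 7470907 in the KO2 libraries, so KO2 was the deeper group throughout. Values are given as CPM, which are counts scaled to library size and composition with the TMM method, and 3 counts correspond to between 0.38 and 1.12 CPM. *Zfp296* itself had 31 counts in each WT library and 416 and 282 counts in the KO2 libraries. Counts over a whole gene cannot show a small change in its first exon, so this level, higher in the KO2 libraries, does not check the KO label. The study reports checks of its KO clones by sequencing and by mass spectrometry. It also states that ZFP296 depletion may differ between its KO lines. The groups also differed in Y-linked RNA. *Eif2s3y* and *Uty* had 0 counts in both WT libraries, and *Eif2s3y* had 2014 and 2119 counts in the KO2 libraries. Whether the WT libraries hold the very line from which the clone was made cannot be told from these data. Differences between WT and KO2 that come with *Zfp296*, with the Y-linked RNA or with the choice of 1 clone cannot be told apart here. Among the ESC markers in the data, *Pou5f1*, *Nanog*, *Sox2*, *Zfp42*, *Esrrb* and *Klf4* were all above 200 CPM in every library. *Dppa3* lay between 33.5 and 51.2 CPM.

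Per length, the list spanned a wide range of RNA levels. In WT, mean CPM per kilobase of exon was highest for *Dppa5a*, at 1512, followed by *Zfp42* (REX1) at 969.8 and *Fbxo15* at 344. *Nanog* stood at 282, *Rif1* at 216, *L1td1* at 213 and *Pou5f1* at 136 CPM per kilobase. The low end held *Zic2* at 2.91, *Lin28b* at 1.24 and *Dppa1* at 0.71 CPM per kilobase, while *Fgf5* was at 0. Reads from exon sequence with another copy in the genome may be missing from these levels. The share of 50-base exon runs with such a copy was 64.6% for *Dppa5a*, 34.9% for *Zfp42*, 20.6% for *Nanog* and 17.8% for *Pou5f1*. It was 48.2% for *Dppa2* and 49% for *Dppa4*, but 2.89% for *L1td1* and 0% for *Fbxo15* and *Rif1*. The 10 members with the highest levels per kilobase were the same in WT and KO2. The largest move in this order was that of *Mybl2*, which went from rank 14 in WT to rank 23 in KO2. *Dppa1* went from rank 36 to rank 29. As these are bulk samples, fewer cells with a transcript and less of it per cell cannot be told apart.

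**Figure D1:**
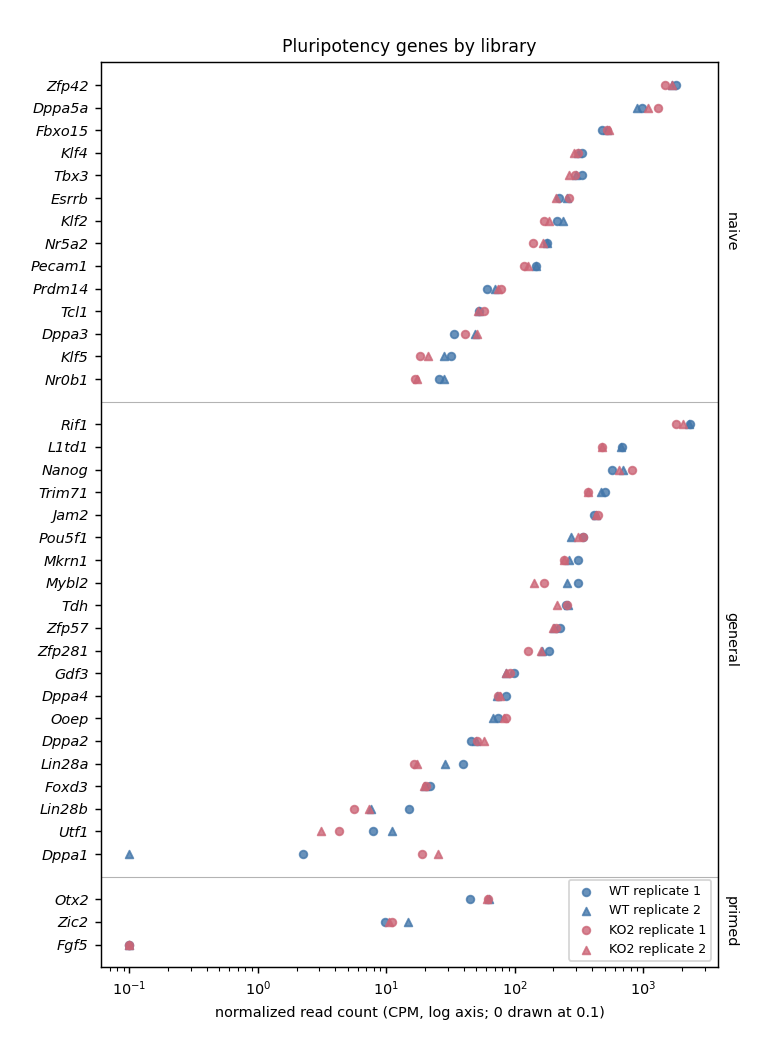
Normalized read count (CPM, log axis) of the 37 pluripotency genes in each library, grouped as naive, general and primed and ordered by the WT mean. Blue symbols are WT and red symbols KO2, with circles for replicate 1 and triangles for replicate 2, and a level of 0 is drawn at 0.1. For most genes the 4 symbols lie close together, while *Dppa1* is near the lower end in WT and at 18.9 and 25.4 CPM in KO2.

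The members were then compared between KO2 and WT. Of the 37 members, 36 had enough counts to be tested, and 5 passed the threshold of an adjusted p of 0.05 in edgeR's quasi-likelihood test, with p adjusted by Benjamini-Hochberg over all 12883 tested genes. *Mybl2*, *Lin28a*, *L1td1* and *Trim71* were lower in KO2 and *Dppa1* was higher. All 5 belonged to the general pluripotency genes. Over all tested genes, 727 passed the same threshold, which is 5.64%, with 2.61% higher and 3.04% lower in KO2. The share among the members was larger, and they were chosen with earlier results of these data known. The 12 members with a log2 fold change above 0 and the 24 below 0 had a joint median of -0.11, compared to 0.01 over all tested genes. This split depended on the scaling. With ERCC size factors and with no scaling factor, 17 members were above and 19 below 0, with medians of -0.02 and -0.01, while the median of all genes was 0.09 and 0.11. Both KO2 libraries lay above both WT libraries for 6 members and below them for 17. The groups fell apart in this way for 48.8% of all tested genes, with KO2 above WT for 25.4% and below for 23.4%. Without a scaling factor for composition, 356 genes were higher and 203 lower across the table, compared to 336 and 391 with it.

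**Figure D2:**
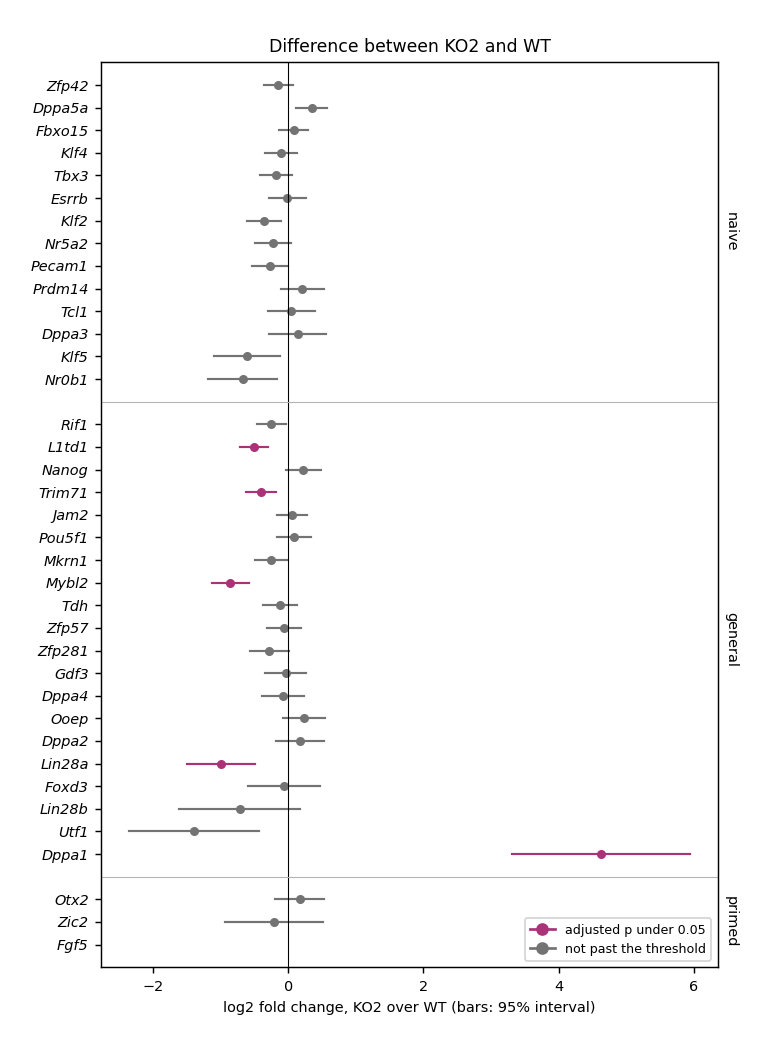
Log2 fold change between KO2 and WT (x axis) for the 36 tested pluripotency genes, in the same order as the plot of levels, with 95% intervals as bars. Purple marks the 5 genes past an adjusted p of 0.05, of which *Dppa1* is to the right of 0 and *Mybl2*, *Lin28a*, *L1td1* and *Trim71* are to the left, and *Fgf5* has no value.

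Of the small groups assigned for this work, the RNA-binding proteins held the most genes past the threshold. Of *Lin28a*, *Lin28b*, *L1td1*, *Trim71* and *Ooep*, 3 of 5 were called lower in KO2, compared to 3.04% of all tested genes. The list was chosen with earlier results of these data known, so this share describes the group and is not independent evidence. The median log2 fold change of the 5 was -0.51. *Dppa5a*, placed among the naive markers, also encodes an RNA-binding protein and was above 0. With it, 4 of 6 genes were below 0 and 2 above, and the median was -0.45. The group's split into 4 genes below 0 and *Ooep* above 0 was found in the reported fit and under all 14 alternative settings, while the calls themselves were less stable, as given below for each gene.

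*Lin28a* (ENSMUSG00000050966) lies on the minus strand of chr4:133559245-133574756 in NCBIM37 (mm9), the build of the files. It had 39.5 and 28.6 CPM in the WT libraries and 16.4 and 17.2 CPM in the KO2 libraries, from 106, 121, 129 and 129 counts. The WT libraries were both higher, and they lay further apart than the KO2 libraries. The mean fell from 34.1 ± 7.72 CPM in WT to 16.8 ± 0.626 CPM in KO2 (SD, n = 2), a log2 fold change of -0.99 with a standard error of 0.24 (adjusted p = 0.0204, edgeR). In the fit, the level in KO2 was 50.2% of that in WT, with a 95% interval of the fold from 0.353 to 0.714. The call was lost without WT replicate 1 (log2 fold change -0.77, adjusted p = 0.172), without KO2 replicate 1 (-0.94, adjusted p = 0.0539) and with DESeq2 (-1.01, adjusted p = 0.051). It was also lost with size factors from the ERCC spike-ins, with no scaling factor and with no filter on low counts.

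Its paralogue *Lin28b* (ENSMUSG00000063804, chr10:45096426-45206201, minus strand) was expressed at a lower level. It had 14.9 and 7.56 CPM in WT and 5.58 and 7.35 CPM in KO2. The WT libraries were both higher, but WT replicate 2 was only just above KO2 replicate 2. The log2 fold change was -0.72 with a standard error of 0.43 and did not pass the threshold (adjusted p = 0.381, edgeR). Its 95% interval, from -1.61 to 0.18, holds both a change of the size seen for *Lin28a* and none at all.

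*L1td1* (ENSMUSG00000087166, chr4:98393425-98405171, plus strand) was among the most abundant members, and its replicates were close in both groups. It had 689 and 665 CPM in WT and 477 and 475 CPM in KO2. The gap between the groups was larger than the spread within either. The mean fell from 677 ± 16.9 to 476 ± 1.96 CPM (SD, n = 2), to 70.3% of WT, and the log2 fold change was -0.51 with a standard error of 0.1 (adjusted p = 0.00468, edgeR). Without WT replicate 1, the log2 fold change was -0.48 and the call was lost (adjusted p = 0.0695), as it was with ERCC size factors and with no filter.

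*Trim71* (ENSMUSG00000079259, chr9:114420393-114473487, minus strand), also known as *Lin41*, encodes an RNA-binding ubiquitin ligase. It had 505 and 471 CPM in WT and 369.5 and 369.3 CPM in KO2. Again both WT libraries were higher and the KO2 libraries were close together. The level in KO2 was 75.8% of that in WT, a log2 fold change of -0.4 with a standard error of 0.1 (adjusted p = 0.0297, edgeR). This was the smallest change among the 5 called members, and the call was lost when any of the 4 libraries was left out. The log2 fold change then ranged from -0.45 (adjusted p = 0.071, without WT replicate 2) to -0.35 (adjusted p = 0.175, without WT replicate 1), with -0.4 without KO2 replicate 1 (adjusted p = 0.101) or KO2 replicate 2 (adjusted p = 0.0689). The call was also lost with ERCC size factors, with no scaling factor and with no filter.

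*Ooep* (chr9:78223916-78226532), which encodes a protein of the maternal complex beneath the membrane of the oocyte, was above 0. It had 74.5 and 67.8 CPM in WT and 85.1 and 81.9 CPM in KO2. KO2 was above WT without overlap, but the log2 fold change of 0.24 did not pass the threshold (adjusted p = 0.409, edgeR).

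**Figure D3:**
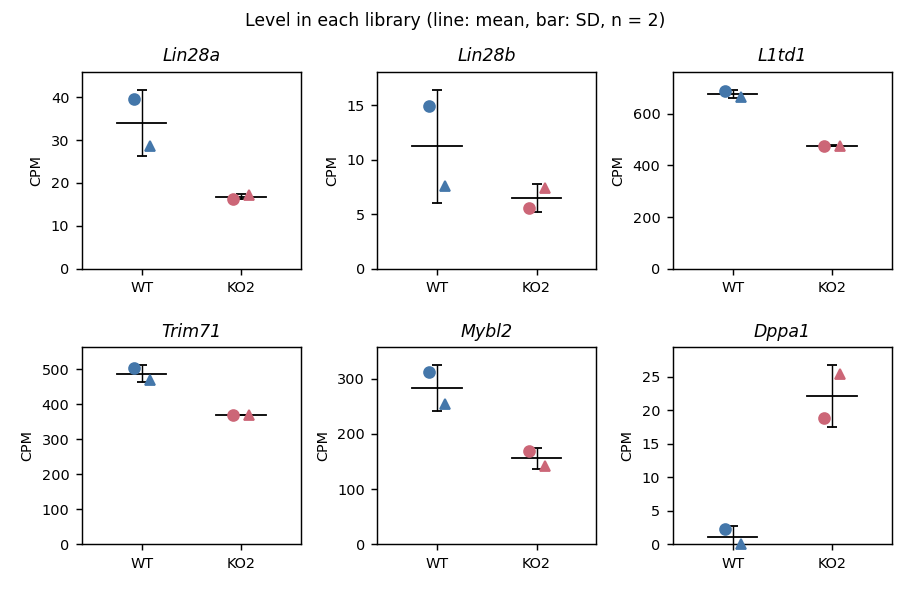
CPM in each library for the RNA-binding genes *Lin28a*, *Lin28b*, *L1td1* and *Trim71* and for *Mybl2* and *Dppa1*, with circles for replicate 1, triangles for replicate 2, lines at the mean and bars for the SD (n = 2). Each axis starts at 0 and has its own scale, and the fitted level in KO2 is 50.2% of WT for *Lin28a*, 70.3% for *L1td1* and 75.8% for *Trim71*.

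*Lin28a*, *Lin28b* and *Trim71* are also textbook targets of let-7, so their sequences were searched for sites. The mature let-7a sequence of RefSeq is shown first, with bases 2 to 8, the seed, in capitals. The lines after it are the sites in the 3′ untranslated regions (UTRs) of these genes in the NCBIM37 annotation, written as DNA on the strand of the gene, with the 7 bases complementary to the seed in capitals. The sites are numbered from the start of the UTR.
let-7a-5p: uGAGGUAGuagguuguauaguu
Lin28a site 1, chr4:133561104-133561126: gcacagcctgttgaaCTACCTCa
Lin28a site 2, chr4:133560466-133560488: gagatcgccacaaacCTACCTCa
Lin28b site 1, chr10:45100828-45100850: acccgggcgggaagtCTACCTCa
Lin28b site 2, chr10:45098454-45098476: tatacttgttagtaaCTACCTCt
Lin28b site 3, chr10:45098282-45098304: gtttacagcacatggCTACCTCc
Lin28b site 4, chr10:45096866-45096888: aaatgatggcaccgaCTACCTCt
Trim71 site 1, chr9:114421590-114421612: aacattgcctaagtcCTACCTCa
Trim71 site 2, chr9:114421494-114421516: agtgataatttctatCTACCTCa

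*Lin28a* thus held 2 matches, *Lin28b* held 4 and *Trim71* held 2. *Esrrb* and *Gdf3* held 1 each, and the other members with a UTR, *L1td1*, *Mybl2* and *Dppa1* among them, held 0. In all, 5 of the 36 members with a UTR (13.9%) had a match to CTACCTC, compared to 1184 of 11247 tested genes (10.5%), and 140 of these genes (1.24%) had at least 2 matches. Among the 137 tested genes outside the list with at least 2 matches, 2 were higher and 4 lower in KO2 (4.38% past the threshold), with a median log2 fold change of -0.03. Of the 10033 without a match, 5.82% passed the threshold and the median was 0.01. A match is a run of letters and no proof of a site in use, and the mature microRNAs were not measured in these libraries.

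Of the 6 general transcription factors, *Mybl2* was the only one past the threshold. *Mybl2* (ENSMUSG00000017861, chr2:162880423-162910424, plus strand) encodes B-MYB, which switches on genes of mitosis in dividing cells. It had 312 and 253 CPM in WT and 169 and 142 CPM in KO2. Each KO2 library was below each WT library. The mean fell from 283 ± 41.7 to 155 ± 19.6 CPM (SD, n = 2), to 55.1% of WT, and the log2 fold change was -0.86 with a standard error of 0.13 (adjusted p = 0.00046, edgeR). The call held with each library left out in turn, with log2 fold changes from -1.01 to -0.7. It was lost with ERCC size factors (-0.77, adjusted p = 0.403) and with no filter (-0.83, adjusted p = 0.127). Of the 50-base runs in its exons, 27.5% occur elsewhere in the genome, and reads from such runs may be missing from its counts in both groups.

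The core factors *Pou5f1* and *Nanog* did not pass the threshold. *Sox2*, the partner of POU5F1, is not on the list and was lower in KO2, as given below. *Pou5f1* (OCT4, chr17:35642982-35647721) had 338 and 273 CPM in WT and 338 and 310.1 CPM in KO2, so that the groups overlapped. The 95% interval of its fold change between KO2 and WT was 0.892 to 1.26. *Nanog* (chr6:122657507-122664651) had 569 and 695 CPM in WT and 822 and 651 CPM in KO2. The groups overlapped here too, and the interval was 0.974 to 1.39. *Foxd3* lay between 19.7 and 22 CPM in all libraries. *Zfp281*, which encodes a zinc finger factor needed for the exit from the naive state, had 186 and 163 CPM in WT and 126 and 160 CPM in KO2 (log2 fold change -0.28, adjusted p = 0.273, edgeR).

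*Utf1*, which encodes a chromatin-bound factor of undifferentiated cells, had the lowest log2 fold change on the list, but it rests on few counts. WT had 21 and 47 counts and KO2 had 34 and 23, which are 7.83 and 11.1 CPM and 4.31 and 3.07 CPM. Both KO2 libraries were lower. The log2 fold change of -1.39 (standard error 0.46) did not pass the threshold (adjusted p = 0.0874, edgeR), and its interval ran from -2.35 to -0.43.

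*Dppa1* (developmental pluripotency associated 1, ENSMUSG00000064010, chr11:46421274-46442763, minus strand) was the one member that was higher in KO2, and the change was from almost no RNA to a moderate level. It had 6 and 0 counts in the WT libraries and 149 and 190 counts in the KO2 libraries, which are 2.24, 0, 18.9 and 25.4 CPM. The log2 fold change was 4.62 with a standard error of 0.63 (adjusted p = 0.000125, edgeR). The ratio of the pooled counts, scaled for depth, was 25.4, with a 95% interval of 11.6 to 69.8 that covers counting error only. Only 1 WT library reached the minimum of the filter on low counts, so *Dppa1* entered the test through the KO2 libraries, where it was high. All WT counts came from replicate 1. Without WT replicate 2 the log2 fold change was 3.3 (adjusted p = 0.00422), and without WT replicate 1 the WT group was at 0 and no fold is given. The call was lost with DESeq2 (adjusted p = 0.28) and with no filter (adjusted p = 0.0721).

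Genes next to *Dppa1* were examined as well. Within 100 kb, *BC053393*, *Gm12171* and *Gm12169* passed the threshold with log2 fold changes of 1.79, 2.09 and 3.29 (adjusted p = 0.0436, 0.0303 and 0.0047, edgeR). Their counts were low in WT, at 5 and 15 for *BC053393*, 4 and 11 for *Gm12171* and 4 and 4 for *Gm12169*, and between 60 and 118 in the KO2 libraries. *Gm12169* and *Gm12171* reached the filter's minimum in 0 and 1 WT libraries and so entered the test through KO2, as *Dppa1* did, while *BC053393* reached it in all 4 libraries. All 3 lie downstream of the *Dppa1* start. Within 1 Mb there were 12 other tested genes. The remaining 9 did not pass the threshold, and 8 of them, those with counts in WT, had log2 fold changes between -0.34 and 1.03. *Havcr1*, upstream of *Dppa1*, had 0 counts in both WT libraries and 13 in each KO2 library, and did not pass the threshold (adjusted p = 0.113, edgeR).

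**Figure D4:**
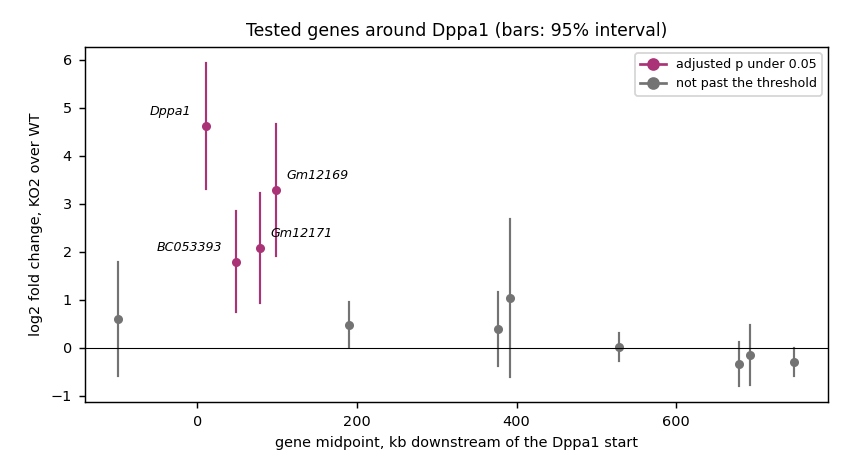
Log2 fold change between KO2 and WT (y axis, bars are 95% intervals) of *Dppa1* and the 11 other tested genes within 1 Mb that had counts in WT, placed by the distance of the gene's midpoint from the *Dppa1* start in kb (x axis, positive is downstream). Purple marks *Dppa1*, *BC053393*, *Gm12171* and *Gm12169*, which pass an adjusted p of 0.05 at 4.62, 1.79, 2.09 and 3.29, while the grey genes do not.

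The naive genes as a class held no call. None of the 14 passed the threshold with edgeR's quasi-likelihood test, 5 had an unadjusted p under 0.05 (19.4% of all tested genes did), and DESeq2 called 1, *Dppa5a*. The median log2 fold change of the class was -0.13, or -0.02 with ERCC size factors and -0.03 with no scaling factor, and the summed level of the 14 genes lay between 4747 and 4896 CPM in all 4 libraries.

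Of the 9 transcription factors in this class, 8 had a log2 fold change below 0. Both KO2 libraries lay below both WT libraries for 7 of the 9, compared to 23.4% of all tested genes. The median of the 9 factors was -0.18, or -0.08 with ERCC size factors and -0.07 with no scaling factor. The exception was *Prdm14*, which encodes a repressor of genes of FGF signalling and DNA methylation, at 61.1 and 70.4 CPM in WT and 78.4 and 74.5 CPM in KO2. *Esrrb* was level at -0.01 (interval of the fold 0.822 to 1.2), and it moved above 0 with ERCC size factors, with no scaling factor, with either other filter, and without WT replicate 2 or KO2 replicate 2. *Klf4*, *Zfp42*, *Tbx3* and *Nr5a2* had values of -0.11, -0.15, -0.18 and -0.23. The differences were larger, though still short of the threshold, for 3 factors. *Klf2*, a KLF factor held up by MEK inhibition, had 212 and 238 CPM in WT and 169 and 184 CPM in KO2 (log2 fold change -0.35, adjusted p = 0.0951, edgeR). *Klf5* had 32.1 and 28.1 CPM in WT and 18.3 and 21 CPM in KO2 (-0.61, adjusted p = 0.155). *Nr0b1*, which encodes the orphan receptor DAX1, had 25.7 and 28.1 CPM in WT and 16.6 and 17.2 CPM in KO2 (-0.68, adjusted p = 0.126).

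Of the 5 naive markers that are no transcription factors, 4 had values above 0, and 3 did without WT replicate 1 or without either KO2 replicate. *Dppa5a* (ESG1, an RNA-binding protein with a KH domain) was closest to a call, with 972 and 900 CPM in WT and 1299 and 1082 CPM in KO2. Both KO2 libraries were higher, and the level was 127% of WT (log2 fold change 0.35, standard error 0.11, adjusted p = 0.0669, edgeR). It passed the threshold under 5 of the alternative settings, with adjusted p between 0.00438 (without KO2 replicate 2) and 0.0486. Of the 50-base runs in its exons, 64.6% have another copy in the genome, so its counts may leave out many reads, and its level is uncertain. *Dppa3* (STELLA), *Fbxo15* and *Tcl1*, a cofactor of AKT, had log2 fold changes of 0.14, 0.08 and 0.05. The adhesion molecule *Pecam1* was below 0, with 147 and 146 CPM in WT and 117 and 126 CPM in KO2 (-0.27, adjusted p = 0.242).

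The remaining general genes did not pass the threshold. Among those that act on chromatin or DNA, *Rif1*, which sets the timing of replication, had 2294 and 2262 CPM in WT and 1801 and 2033 CPM in KO2 (log2 fold change -0.25, adjusted p = 0.169, edgeR). *Zfp57*, which maintains imprints, and *Dppa4* had values of -0.06 and -0.07, and *Dppa2*, the partner of *Dppa4*, of 0.17. The sign of *Zfp57* and *Dppa4* turned with ERCC size factors, with no scaling factor and without WT replicate 1. The TGF-beta family ligand *Gdf3* was at -0.04, the threonine dehydrogenase gene *Tdh* at -0.12, the adhesion molecule *Jam2* at 0.06 and the ubiquitin ligase gene *Mkrn1* at -0.25. *Mkrn1* had 312 and 266 CPM in WT and 242 CPM in both KO2 libraries (adjusted p = 0.237, edgeR).

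The primed genes showed no call either. *Otx2* (chr14:49277354-49287319), a factor that drives the exit from the naive state, had 45.1 and 62.6 CPM in WT and 61.8 and 60.8 CPM in KO2. *Zic2* (chr14:122874604-122879074) had 9.69 and 14.7 CPM in WT and 11.2 and 10.4 CPM in KO2. The groups overlapped for both genes, with log2 fold changes of 0.17 (interval -0.2 to 0.53) and -0.22 (interval -0.94 to 0.51). Neither had an unadjusted p under 0.05, and DESeq2 called 0 of them. *Fgf5* (chr5:98683203-98706049), the ligand gene that marks the primed epiblast, had 0 counts in all 4 libraries, which allows a level of up to 1.12 CPM in the shallowest library and 0.38 CPM in the deepest.

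For the 31 tested members that were not called, the intervals show how large a change the data could still hold. In 24 of them the whole 95% interval lay within a 1.5-fold change, and in 27 within a 2-fold change. The other 4 were *Klf5*, *Nr0b1*, *Utf1* and *Lin28b*. An unadjusted p under 0.05 was found for 8 of the 31. With called members kept in, it was found for 5 of 14 naive, 8 of 20 general and 0 of 2 primed genes. The share over all tested genes, called genes included, was 19.4%.

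Positions in the genome were then compared. Exons of *Tbx3*, *Foxd3*, *Lin28a*, *Tdh* and *Mkrn1* overlap those of another gene in a small part, for *Lin28a* 103 bp (2.94% of its exons) with *Gm13061* on the opposite strand, and these partners had between 0 and 14 counts per library. Some members are neighbours. *Gdf3*, *Dppa3* and *Nanog* lie on chromosome 6, with 16323 bp between the first pair and 77217 bp between *Dppa3* and *Nanog*. *Dppa5a* and *Ooep* lie 7932 bp apart on chromosome 9, and *Dppa2* and *Dppa4* 16185 bp apart on chromosome 16. None of these 7 genes was called, while both genes of the chromosome 9 pair had KO2 above WT. Of the 70 tested genes outside the list within 100 kb of a member, 7 (10%) passed the threshold, 5 higher and 2 lower in KO2. The share over all tested genes was 5.64%, with 2.61% higher and 3.04% lower. Apart from the 3 next to *Dppa1*, *Aim1l* near *Lin28a* and *Inadl* near *L1td1* were higher, with log2 fold changes of 2.13 and 1.25 (adjusted p = 0.00325 and 0.00296, edgeR), opposite in direction to the member beside them. *Inadl*, now called *Patj*, had 24.2 and 14.9 CPM in WT and 44 and 46.4 CPM in KO2 and lies 7131 bp from *L1td1*. *Gtsf1l*, 2343 bp from *Mybl2*, was lower, with 7.08 and 9.45 CPM in WT and 0.761 and 0.802 CPM in KO2 (log2 fold change -3.4, adjusted p = 0.00246), and it entered the test through the WT libraries alone. *2300002M23Rik*, 56674 bp from *Pou5f1*, was lower as well (-2.12, adjusted p = 0.0201).

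The promoters of the 4 genes that were lower in KO2 are shown for comparison, since they changed in the same direction. Each line holds the 250 bases before the transcription start on the strand of the gene, from RefSeq in build GRCm38.p6, a later build than that of the files. Capitals mark the words that were found in the search described after the sequences.
Lin28a, chr4:134018817-134019066: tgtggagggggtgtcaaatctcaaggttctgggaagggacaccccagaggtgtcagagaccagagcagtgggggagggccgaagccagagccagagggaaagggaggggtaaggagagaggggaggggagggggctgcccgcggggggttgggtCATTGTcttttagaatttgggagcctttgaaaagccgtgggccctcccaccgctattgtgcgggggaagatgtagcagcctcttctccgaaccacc
L1td1, chr4:98726504-98726753: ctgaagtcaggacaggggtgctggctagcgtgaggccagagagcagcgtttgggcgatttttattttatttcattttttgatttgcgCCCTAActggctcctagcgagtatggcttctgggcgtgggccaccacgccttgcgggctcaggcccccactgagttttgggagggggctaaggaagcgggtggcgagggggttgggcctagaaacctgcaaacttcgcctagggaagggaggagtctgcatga
Trim71, chr9:114564370-114564619: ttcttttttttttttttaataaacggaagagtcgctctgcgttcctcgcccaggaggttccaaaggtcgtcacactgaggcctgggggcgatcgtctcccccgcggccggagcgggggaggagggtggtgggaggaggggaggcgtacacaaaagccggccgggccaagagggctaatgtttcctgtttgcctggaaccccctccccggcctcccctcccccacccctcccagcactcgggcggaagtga
Mybl2, chr2:163054385-163054634: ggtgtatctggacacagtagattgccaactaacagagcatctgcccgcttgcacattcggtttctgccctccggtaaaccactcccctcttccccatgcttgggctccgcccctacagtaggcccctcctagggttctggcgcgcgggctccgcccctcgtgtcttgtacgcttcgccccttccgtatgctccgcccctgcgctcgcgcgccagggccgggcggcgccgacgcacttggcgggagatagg

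Both strands from 250 bases before to 50 after each start were searched for the POU octamer ATGCAAAT, the SOX word CATTGT, the KLF word GGGTGTGG, the ESRRB word TCAAGGTC and the telomere repeat TTAGGG. None of these words holds another. For 23 members, 33 promoters were available. *Lin28a* held CATTGT from position -96, and *L1td1* held TTAGGG on the minus strand at position -163. *Trim71* and *Mybl2* held none of the 5 words in these windows. *Dppa1* held TTAGGG on the minus strand 38 bases after the start. TTAGGG was present in 8 of the 33 promoters of members (24.2%), those of *Nr5a2*, *Nanog*, *Utf1*, *L1td1*, *Mkrn1*, *Dppa1* and *Otx2*, and in 10.6% of all 32851 promoters. CATTGT was in 15.2% and 12.6%. ATGCAAAT, GGGTGTGG and TCAAGGTC were each in 1 of the 33 (3.03%), compared to 1.74%, 3.56% and 1.05% of all promoters. Promoters of the same gene can overlap, so these shares are descriptions of the windows and were not tested.

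Other genes of the same states were read from 3 further lists. Of 18 other naive and self-renewal genes, 17 were tested, and 2 were higher and 1 lower in KO2. The higher ones were *Zfp296* (log2 fold change 2.31, adjusted p = 4.5e-05, edgeR) and *Ncoa3*, a coactivator of ESRRB, which had 217 and 219.8 CPM in WT and 292 and 294 CPM in KO2 (0.42, adjusted p = 0.0294). The lower one was *Sox2*, the partner of POU5F1, which had 873 and 806 CPM in WT and 483 and 489 CPM in KO2. Its log2 fold change was -0.79 (adjusted p = 7.8e-05, edgeR), and its level in KO2 was 57.9% of that in WT. Of the 15 other formative and primed genes, 12 were tested and 1 was higher, *Tead2*, at 76.4 and 67.8 CPM in WT and 108 and 96.6 CPM in KO2 (0.51, adjusted p = 0.0446). *T* and *Lef1* had 0 counts in all libraries. Of the 6 genes listed for the 2-cell-like state, *Eif1a* alone was tested and was not called (-0.28, adjusted p = 0.152, edgeR). It had 549 and 491 CPM in WT and 414 and 444 CPM in KO2, nearly all of the list's summed level. Being so far above the rest of its list, *Eif1a* says little about this state. The 3 *Zscan4* genes had between 1 and 11 counts per library.

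The defining markers of other cell types were at or near 0 in all libraries. Of 7 fibroblast and feeder markers, 0 had enough counts to be tested, and their summed level lay between 0.936 and 3.54 CPM. Of 8 primitive endoderm markers, 4 were tested and none was called, with a summed level of 83.5 and 89.8 CPM in WT and 70 and 72.9 CPM in KO2, most of it from *Col4a1*. *Gata6*, the defining gene of this lineage, had at most 1 count in a WT library and 2 and 8 counts in the KO2 libraries. Of 7 trophoblast markers, *Tfap2c*, which is also made in ESCs, was the only one tested and was higher in KO2, at 90.9 and 89.3 CPM in WT and 129.5 and 141 CPM in KO2 (log2 fold change 0.59, adjusted p = 0.0121, edgeR). *Cdx2* and *Elf5*, the defining trophoblast genes, had 0 counts in WT and between 2 and 9 in KO2. Of 5 neural progenitor markers, only *Nes* was tested, at 97.6 and 86.5 CPM in WT and 114 and 120.3 CPM in KO2 (0.35, adjusted p = 0.158). The summed trophoblast and neural levels, nearly all from *Tfap2c* and *Nes*, were thus higher in KO2, at 132 and 146 CPM and 115 and 121 CPM, compared to 91.3 and 89.6 CPM and 97.6 and 86.7 CPM in WT, and their part in the results above was not tested.

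**Figure D5:**
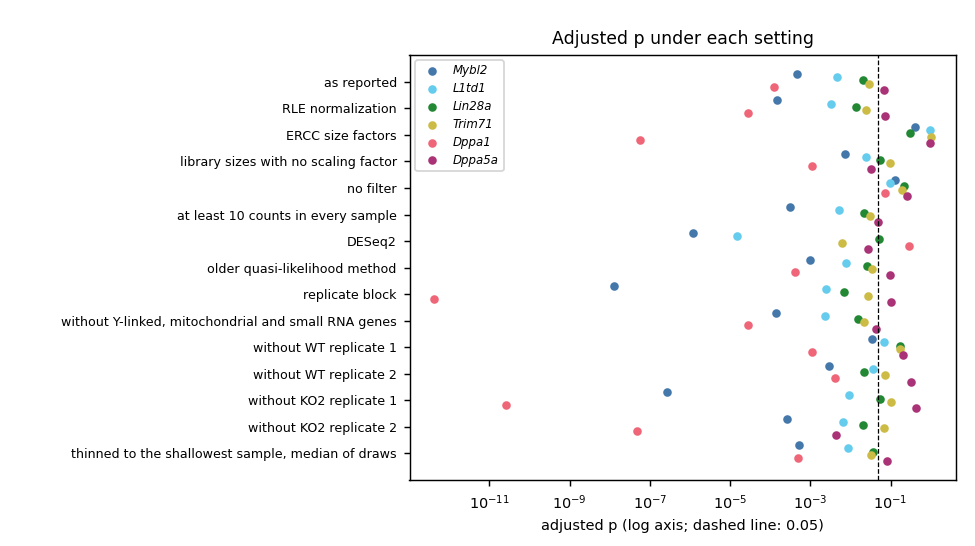
Adjusted p (x axis, log scale) of the 5 called genes and *Dppa5a* in the reported fit and under each of the 14 alternative settings (y axis), with a dashed line at 0.05. *Mybl2* is left of the line in 12 of 14 alternatives, *L1td1* in 11 of 14, *Lin28a* in 8 of 14, *Trim71* in 7 of 14 and *Dppa1* in 11 of the 13 that gave it a value, while *Dppa5a* is left of it in 5.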

How the data were processed

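RNA was depleted of ribosomal RNA and made into strand-specific libraries. Per the labels and the study's methods, the authors mapped reads to mm9 with HISAT2 and counted them per gene with HTSeq. The deposited values are raw counts per gene and library, neither normalized nor pooled. The authors tested them with DESeq2. Versions, annotation and counting options, the use of strand among them, are not given in the sources used here. The identifiers go beyond the NCBIM37 (GENCODE) annotation used here, which gave symbols and positions for 32782 of 48526. The 92 ERCC and 5 HTSeq summary rows were kept out of library sizes. Genes held between 41.2% and 47.1% of all counts, and reads without a unique position between 35.6% and 40.4%, so genes with near-identical copies may lose counts.

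Groups and replicate numbers came from the sample titles. The labels call the samples biological replicates without naming separate cultures, so p-values measure the spread between these samples. Replicates differed by more than sampling noise (mean chi-square per gene of 5.92 in WT and 21.3 in KO2) and were counted separately.

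Counts were filtered with filterByExpr (minimum count 10, minimum total 15), scaled with TMM and tested with edgeR 4.0.16 (R 4.3.3, limma 3.58.1), using glmQLFit and glmQLFTest with genotype as the only term and Benjamini-Hochberg adjustment over 12883 genes at a threshold of 0.05. Intervals are 95%. Counting intervals and the 3-count limit cover counting error only. The fits were tested on simulated data. Alternatives were RLE factors, ERCC size factors, no scaling factor, DESeq2 1.42.0, no filter, a minimum of 10 counts in every sample, the older quasi-likelihood method, a replicate block, removal of Y-linked, mitochondrial and small RNA genes, thinning to the shallowest library (10 draws) and leaving out each library. The exon runs of 50 bases, the let-7 matches and the 1 Mb around *Dppa1* were examined after the values had been seen, and text searches used Python 3.11.15.

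The members and gene lists were chosen with earlier results of these data known, and the classes within the list were assigned for this work. All members are accounted for. Full values are given for members past the threshold, *Pou5f1*, *Nanog* and the primed genes, and genes of other lists and neighbours are named where past the threshold. Values of further members and list genes were printed after they had been seen. Of 73 genes on the 7 other lists, 66 matched.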

Additional observations from a re-analysis of the deposited data

How the results depend on the processing

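Under the 14 alternatives, 478 of 503 values for single members kept their side of the threshold, 20 fell short of it and 5 passed it (each of them *Dppa5a*). The sign differed from the reported one in 25 values, from 11 members that were not called, with log2 fold changes of at most 0.16 in size, and in 0 values of the 5 called members. The causes of the changes were not tested. With ERCC size factors, 163 genes, 1 member (a general gene), 1 gene of the other naive and primed lists and 0 of the cell type lists were called. With no filter, which tests 25397 genes, the counts were 61, 0, 1 and 0, with 0 general genes. DESeq2 called 454 genes, 3 general and 1 naive, and fits without a scaling factor called 3 general and 1 naive. The naive count was also 1 with at least 10 counts in every sample and without Y-linked, mitochondrial and small RNA genes. Leaving out each library in turn gave 270 to 691 genes, 2 to 5 members, 2 to 4 general, 0 to 1 naive, 2 to 4 of the naive and primed lists and 0 to 1 of the cell type lists. The lowest counts of genes and members came without WT replicate 1. In these fits the lone library of a group was assumed to vary like the other group. The filter of at least 10 counts gave no value for *Dppa1*. The median log2 fold change of all genes rose from 0.01 to 0.09 with ERCC size factors and 0.11 without a scaling factor. The samples share a replicate number but nothing else that pairs them, and deviations from the group means correlated at -0.0095 for equal numbers. With the replicate block, 950 genes, 5 members, 5 of the naive and primed lists and 1 of the cell type lists were called, and no member's call changed. The WT depth limits what can be seen of genes below about 1.12 CPM.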
